A study of Mus musculus with 2 samples.

Results

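The genes described here build caveolae, and they comprised the caveolins Cav1, Cav2 and Cav3, the cavins Cavin1, Cavin2 and Cavin3, the neck protein gene Ehd2, and the pacsin genes Pacsin2 and Pacsin3. They were chosen by name, and 9 of 9 were matched by Ensembl identifier among the 55573 genes listed in the files. The cavins bear the older symbols Ptrf, Sdpr and Prkcdbp in the annotation used for positions, GENCODE vM1. Their transcripts were counted by RNA-seq in mesenteric arteries, the resistance vessels of the gut, of wild-type C57BL/6 mice aged 10 weeks. Control arteries, held in 5 mM K+, gave one library, and arteries depolarized in 60 mM K+ gave the other. The sample labels give 60 min for both conditions, and the tissue of 2 mice was pooled for each library. One protocol field of the labels names the high K+ solution for both libraries, and the supplementary methods describe control tissue as the distal part of the ligated bed, taken before the remainder was perfused with high K+, whereas the main text has both perfused for the same time. Segment and time in solution therefore cannot be told apart from depolarization. All solutions held tetrodotoxin, which blocks nerve activity. With 1 library per condition there was no replicate check and no test between the conditions, and the intervals given below are 95% intervals that cover counting error only.

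Caveolae are flask-shaped pits of the plasma membrane that are abundant in smooth muscle, endothelium and adipocytes. Caveolins insert into the inner leaflet of the membrane and form the bulb, cavins assemble a coat on its cytoplasmic face, EHD2 forms a ring at the neck that holds the pit at the surface, and pacsins are F-BAR proteins that bend the membrane. Caveolin-1 is needed for caveolae in smooth muscle and endothelium, caveolin-2 joins it in the same oligomers, and caveolin-3 takes its place in striated muscle. In vascular myocytes caveolae also hold ion channels and kinases close together, and the study asked whether they serve excitation–transcription (E-T) coupling, the control of transcription by Ca2+ entry. Both libraries described here are from mice with intact caveolin genes.

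The 3 caveolins arose from a common ancestral gene, and the window below shows how far their transcripts can be told apart by sequence. Windows of 90 coding bases were compared codon by codon, within 1 exon of each gene and aligned without gaps to both Cav2 and Cav3. The one shown is that in which Cav1 and Cav3 had the most bases in common. It covers chr6:17289209-17289298 in exon 3 of Cav1, chr6:17231991-17232080 in exon 2 of Cav2 and chr6:112422227-112422316 in exon 2 of Cav3, all on the plus strand of NCBIM37 (mm9). Capitals in the Cav1 line mark bases found in Cav2 or Cav3 at the same place, and capitals in the other lines mark bases equal to Cav1.
Cav1: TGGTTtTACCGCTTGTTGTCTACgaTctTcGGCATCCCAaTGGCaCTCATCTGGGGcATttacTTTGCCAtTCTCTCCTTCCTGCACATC
Cav2: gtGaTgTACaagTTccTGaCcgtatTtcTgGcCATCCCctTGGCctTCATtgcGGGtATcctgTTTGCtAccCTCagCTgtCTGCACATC
Cav3: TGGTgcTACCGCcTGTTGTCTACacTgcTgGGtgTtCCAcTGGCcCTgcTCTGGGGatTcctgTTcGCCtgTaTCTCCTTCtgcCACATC
Within it, Cav3 shared 62 of 90 bases with Cav1 and Cav2 shared 52. Over the whole coding sequence, Cav1 and Cav3 were 71.8% identical over 454 aligned bases, a higher share than in the window. No exact run was longer than 15 bases. Cav1 and Cav2 were 62.0% identical with a longest run of 12 bases. None of the 3087 different 50-base words in the Cav1 transcripts occurred in a protein-coding transcript of another gene in GENCODE vM1, and the same held for Cav2, Cav3, the cavins, Ehd2 and Pacsin3. In Pacsin2, 3 of 3906 words were shared. Pseudogenes were not searched. The word length was a choice, since the read length is not given in the sources used here.

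Cav2 and Cav1 are direct neighbours on chromosome 6, where Cav2 (17231185 to 17239115) ends 17220 bases before Cav1 (17256335 to 17291452) begins. The 250 bases before their starts are printed because the study examined CREB, which binds the cAMP-responsive element (CRE). A further reason is that the difference between the libraries was not the same for Cav1 and Cav2. The sequences were taken from RefSeq promoter windows of the build GRCm38.p6, and each matched a single place on the chromosome in NCBIM37. Capitals mark the CCAAT box (CCAAT) and the GC box (GGGCGG), searched on both strands.
Cav1, chr6:17256085-17256334, plus strand: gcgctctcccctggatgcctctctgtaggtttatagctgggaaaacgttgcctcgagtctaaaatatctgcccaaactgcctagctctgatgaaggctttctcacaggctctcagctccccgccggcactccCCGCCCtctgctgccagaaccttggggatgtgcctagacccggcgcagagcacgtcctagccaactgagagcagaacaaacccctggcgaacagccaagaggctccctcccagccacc
Cav2, chr6:17230935-17231184, plus strand: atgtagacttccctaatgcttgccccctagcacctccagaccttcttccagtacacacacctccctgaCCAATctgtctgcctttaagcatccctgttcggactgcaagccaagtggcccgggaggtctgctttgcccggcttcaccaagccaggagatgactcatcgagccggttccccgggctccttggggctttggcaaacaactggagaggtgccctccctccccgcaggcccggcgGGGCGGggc
Cavin1, whose product starts the caveolar coat, is shown with them as the most abundant member.
Cavin1, chr11:100831930-100832179, minus strand: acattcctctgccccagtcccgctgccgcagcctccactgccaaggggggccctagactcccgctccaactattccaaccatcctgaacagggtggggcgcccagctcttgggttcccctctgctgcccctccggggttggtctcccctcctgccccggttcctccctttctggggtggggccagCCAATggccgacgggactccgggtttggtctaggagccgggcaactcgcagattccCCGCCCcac
Windows were found for 8 of the 9 genes, all but Cavin3, and there were 13 windows in all. They lie before RefSeq starts, and some fall inside the gene as annotated in GENCODE vM1. The Cavin1 window is one of these, since the annotated gene runs from 100818047 to 100832201. The full CRE, TGACGTCA, was in 0 of 13 windows, compared with 1.55% of all 32851 promoters of the same length. Its core, TGACG, was in 0 of 13 windows and in 17.8% of all promoters, and the CArG box, which is bound by serum response factor, was in 0 of 13 and in 1.47%. Windows of the same gene can overlap, as those of Cavin1 do. By gene, the CRE, its core and the CArG box were found for 0 of 8, against 1.77%, 19.8% and 1.62% of all genes. At least 1 CCAAT box was found for 6 of 8 genes and a GC box also for 6 of 8, compared with 37.5% and 35.4% of all genes. The CCAAT and GC boxes were added to the search after the windows had been seen. These counts describe the letters in these windows and not the binding of any factor.

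In all, 10480918 reads were counted for 5 mM K+ and 11289598 for 60 mM K+, and the 9 caveolar genes together took 0.352% and 0.355% of them. Over both libraries together, Acta2 and Myh11, which encode smooth muscle actin and myosin, had the most and the second most reads of all genes, whereas the smooth muscle gene Tagln had only 314 and 387 reads. The libraries were scaled by the trimmed mean of M-values (TMM) in edgeR, with factors of 1.075 for 5 mM K+ and 0.930 for 60 mM K+. Values scaled in this way are given as CPM, reads per 1000000 reads of the scaled library. The deposited FPKM values divide the fragments of a gene by its length and by the library total and so were scaled by total reads instead, which lowers every log2(fold-change) by 0.21 relative to TMM. This shift was wider than the counting error of every member but Cav3, so the value of each member is given with scalings under which its sign differs. Ppia and Hprt, the reference genes of the qPCR of the study, were themselves higher in 60 mM K+, with log2(fold-change) of 0.51 and 0.47.

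The levels of the 9 genes spanned a wide range (plot of FPKM by library). Cavin1 had the highest level per length, with 738 FPKM in 5 mM K+ (95% Poisson interval 727 to 750) and 800 FPKM in 60 mM K+ (788 to 811). Cav1 followed with 540 FPKM (525 to 555) and 499 FPKM (486 to 513). Among the 14829 genes with 10 or more reads summed over the libraries, 99.4% had a lower level than Cavin1 and 99.0% a lower level than Cav1 in the control library. Ehd2 was the third with 258 and 252 FPKM. Cavin3 and Pacsin2, at 118 and 111 FPKM in the control library, did not differ beyond counting error there, with a ratio of 1.06 (0.998 to 1.13). In the depolarized library their ratio was 1.11 (1.05 to 1.18). Below them came Cav2 with 94.3 and 66.8 FPKM, Cavin2 with 62.0 and 58.3 FPKM, and Pacsin3 with 42.4 and 48.4 FPKM. Cav3 was the lowest in both libraries by the deposited FPKM, with 11.4 FPKM (9.56 to 13.4) and 7.12 FPKM (5.75 to 8.72). The order of the 9 genes was the same in both libraries, and apart from Cavin3 and Pacsin2 in the control library all neighbours in it differed beyond counting error.

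**Figure D1:**
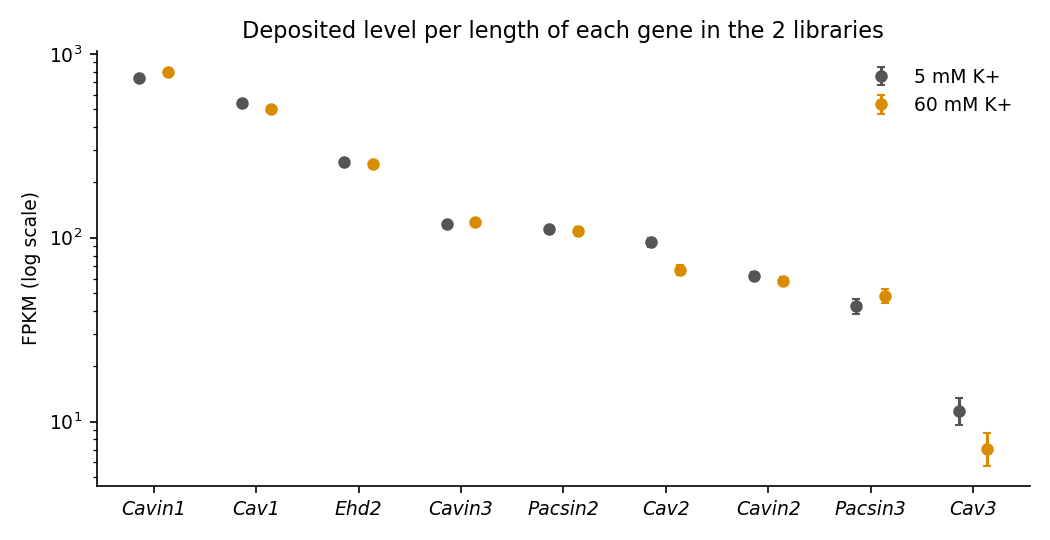
FPKM on a log axis for the 9 caveolar genes, in 5 mM K+ (grey) and 60 mM K+ (orange), 1 library each, with bars for the 95% Poisson counting interval. Levels run from 800 FPKM for Cavin1 to 7.12 FPKM for Cav3, both in 60 mM K+, and the order of genes is the same in both libraries.

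This order rests on the gene lengths behind the deposited FPKM. Dividing reads by FPKM gave a length of 925 bases for Cav1, while the union of its annotated exons in GENCODE vM1 was 3434 bases. For Cavin3 the lengths were 1662 and 1035 bases, and for Pacsin3 971 and 4327 bases. With the union lengths, a setting added after the values were seen, Cavin1 stayed the highest in both libraries and Cavin3 became the second. Cav1 and Ehd2 were then nearly level, with Ehd2 at 0.954 of the Cav1 level in 5 mM K+ and 1.01 in 60 mM K+. At the lower end, Pacsin3 was then below Cav3 in 5 mM K+, at 9.50 and 11.4 FPKM, and above it in 60 mM K+. The Cav1 level was 47.4 times that of Cav3 in the control library by the deposited FPKM and 12.8 times by the union lengths. On mm9, Cavin1 lies on chromosome 11 (100818047 to 100832201, minus strand), Cavin2 on chromosome 1 (51345970 to 51359803, plus strand) and Cavin3 on chromosome 7 (112629121 to 112630711, minus strand). Ehd2 lies on chromosome 7 (16532326 to 16552916, minus strand), Pacsin2 on chromosome 15 (83206037 to 83295036, minus strand) and Pacsin3 on chromosome 2 (91096111 to 91104836, plus strand). Cav3 lies on chromosome 6 from 112409495 to 112422865, far from Cav1 and Cav2. Comparisons of 1 gene between the libraries do not depend on its length.

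Cav1, the structural protein of caveolae in this tissue, had 5233 reads in the control and 5212 in the depolarized arteries, which correspond to 464 and 496 CPM. Its log2(fold-change), 60 over 5 mM K+, was 0.10 with a counting interval of 0.04 to 0.15, a 1.07-fold difference, and it turned to -0.11 with total counts, to -0.035 when the median of the smooth muscle markers was set to 0 and to -0.39 with Ppia and Hprt set to 0. The libraries were nearly level for Cav1. Cav2, which depends on caveolin-1 to reach the surface, had 1450 and 1107 reads, or 129 and 105 CPM. Its log2(fold-change) was -0.29 (-0.40 to -0.17). It was below 0 with every scaling tried, but every other scaling lowered values from TMM, so its sign could not change. Cav3, the striated muscle caveolin that is also found at low levels in smooth muscle, had 138 and 93 reads, or 12.2 and 8.86 CPM. Its log2(fold-change) was -0.47 (-0.86 to -0.08), with a wide interval because of the few reads. For the same reason as with Cav2, it stayed below 0 with every scaling. Among the caveolins, the less abundant pair was lower in the depolarized library with TMM, and the sign of Cav1 depended on the scaling.

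The 3 cavins were each higher in 60 mM K+ with TMM, only Cavin1 had an interval above 0 with total counts as well, and none was higher relative to Ppia and Hprt. Cavin1, which is required for the caveolar coat, had 16060 reads in 5 mM K+ and 18734 in 60 mM K+, or 1425 and 1784 CPM. Its log2(fold-change) was 0.32 (0.29 to 0.35), a 1.25-fold difference, which was 0.11 with total counts and -0.17 relative to Ppia and Hprt. Cavin3, a cavin that recruits protein kinase C, had 2057 and 2275 reads, and its value was 0.25 (0.16 to 0.33), or 0.038 with total counts and -0.24 relative to Ppia and Hprt. Cavin2, which helps to curve the membrane, had 1985 and 2010 reads, and its value was 0.12 (0.03 to 0.21), or -0.089 with total counts and -0.011 against the smooth muscle markers. Cavin1 had the largest value of the cavins and Cavin2 the smallest.

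The genes of the neck and of membrane bending were also higher with TMM. Ehd2 had 7414 reads in 5 mM K+ and 7805 in 60 mM K+, or 658 and 743 CPM, and a log2(fold-change) of 0.18 (0.13 to 0.22). Pacsin2, the widely expressed pacsin of caveolae, had 2144 and 2265 reads, and its value was 0.18 (0.09 to 0.27). With total counts these values were -0.033 and -0.028, and relative to Ppia and Hprt both were -0.31. Pacsin3, the muscle-enriched pacsin, had 431 and 531 reads, or 38.3 and 50.6 CPM. Its log2(fold-change) was 0.40 (0.22 to 0.59), the highest of the 9 genes. It was 0.19 with total counts and -0.088 relative to Ppia and Hprt. The annotated start of Pacsin3 overlaps an exon of the noncoding gene Gm17281 on the opposite strand. Strand use in the counting is not stated, so reads of this pair cannot be told apart. On chromosome 6, the annotated antisense gene Gm15581 spans Cav1 and Cav2 without sharing exon sequence and had 0 reads in both libraries. Oxtr, the oxytocin receptor gene, ends 813 bases from Cav3 on the opposite strand and had 68 and 43 reads, with a value of -0.56 (-1.15 to 0.01).

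**Figure D2:**
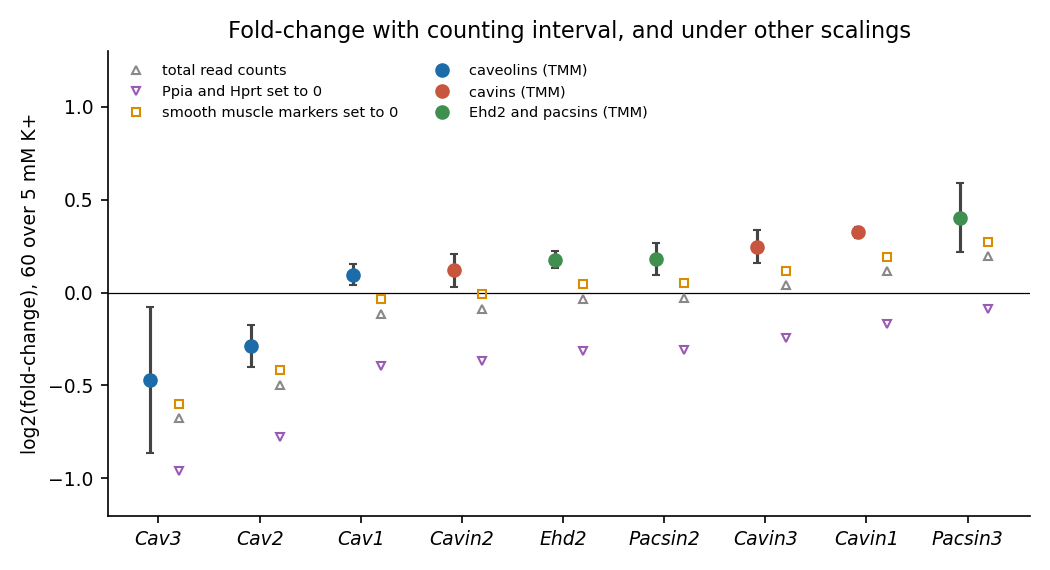
The log2(fold-change) of each gene, 60 over 5 mM K+, with filled points for TMM scaling, bars for the 95% counting interval and open symbols for 3 other scalings. Cav3 and Cav2 lie below 0 under every scaling, whereas the other 7 genes lie above 0 with TMM and below 0 relative to Ppia and Hprt. All 3 other scalings lower values from TMM, so genes below 0 with TMM could not change sign.

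By the fold limit of the study, an absolute log2(fold-change) above 1, none of the 9 genes was called. The study also set a limit on a corrected q value, which was applied neither here nor to the shares that follow. Of all genes with at least 10 reads, 11.4% passed this limit, and of the 6549 genes with at least 500 reads 3.36% did. The counting interval lay above 0 for 7 of the 9 genes and below 0 for Cav2 and Cav3. The background was 25.0% above and 20.3% below for genes with at least 10 reads. Since the interval narrows with depth, the deeper genes are the closer comparison: 41.4% of genes with at least 500 reads lay above 0 and 21.4% below, and of the 8 caveolar genes with that many reads 7 lay above and 1 below. With total counts, 2 members lay above 0 (Cavin1 and Pacsin3) and 3 below (the caveolins), while the background of deep genes became 22.0% above and 46.6% below. The 9 genes had a median log2(fold-change) of 0.18, compared with 0.08 for genes with at least 500 reads and -0.0047 for those with at least 10. The middle 50% of the deep genes ran from -0.13 to 0.31, and 5 of the 8 members with that depth fell inside it. Pacsin3 and Cavin1 lay above, with 17.9% and 23.9% of deep genes having a larger value. Cav2 lay below, with 88.4% of deep genes having a larger value.

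**Figure D3:**
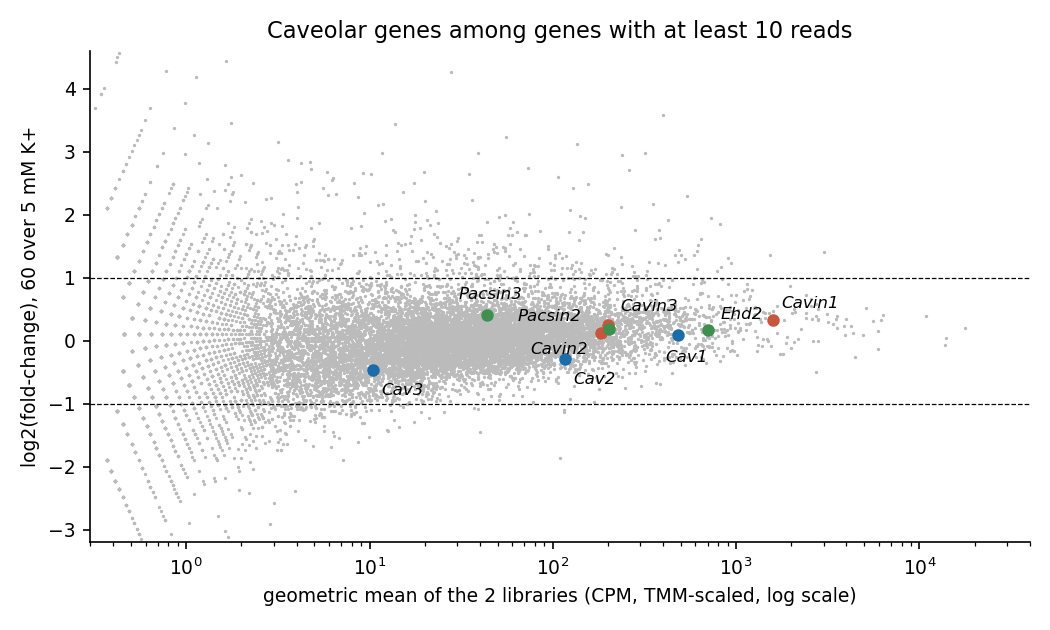
The log2(fold-change) of all 14829 genes with at least 10 reads (grey) against the geometric mean of their 2 levels in TMM-scaled CPM on a log axis, with dashed lines at a log2(fold-change) of 1 and -1. The 9 caveolar genes, coloured by group, lie between -0.47 and 0.40 and within the dashed lines, and 110 other genes fall outside the plotted range.

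Differences between genes within the libraries do not depend on how the libraries are scaled, and for some pairs they exceeded counting error (plot of pairwise differences). For Cav1 minus Cav2, the difference in log2(fold-change) was 0.38 (0.26 to 0.51). Per length, the Cav1 level was 5.72 times that of Cav2 in 5 mM K+ and 7.47 times in 60 mM K+ by the deposited FPKM, and 3.50 and 4.57 times by the union lengths. For Cav1 minus Cav3 the difference was 0.56 (0.17 to 0.96), and for Cav2 minus Cav3 it was 0.18 (-0.23 to 0.59), so the latter pair was not separated at this depth. Cavin1 exceeded Cav1 by 0.23 (0.16 to 0.29), and the Cavin1 level was 1.37 and 1.60 times that of Cav1 in 5 and 60 mM K+ by the deposited FPKM, and 2.02 and 2.36 times by the union lengths. Cavin3 exceeded Cav1 by 0.15 (0.05 to 0.25) and Ehd2 by 0.08 (0.01 to 0.15). Cavin2 and Pacsin2 were not separated from Cav1, with differences of 0.02 (-0.08 to 0.13) and 0.08 (-0.02 to 0.19). Among the cavins, Cavin1 exceeded Cavin2 by 0.20 (0.11 to 0.30) and was not separated from Cavin3 at 0.08 (-0.02 to 0.17). Pacsin3 exceeded Pacsin2 by 0.22 (0.02 to 0.43). Cavin1 exceeded Cav2 by 0.61 (0.49 to 0.73), in a pair added after the values were seen. Of the 15 pairs compared, 4 were added after the values were seen: Cav1 with Cav3, Cav2 with Cav3, Cav2 with Cacna1c and Cavin1 with Cav2. The interval left out 0 in 11 of the 15. The share among pairs of other genes of like depth was not computed, so this count cannot be called particular to the caveolar genes. Intervals widened by an assumed variation between libraries were not applied to the pairs. These intervals do not include differences between animals.

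**Figure D4:**
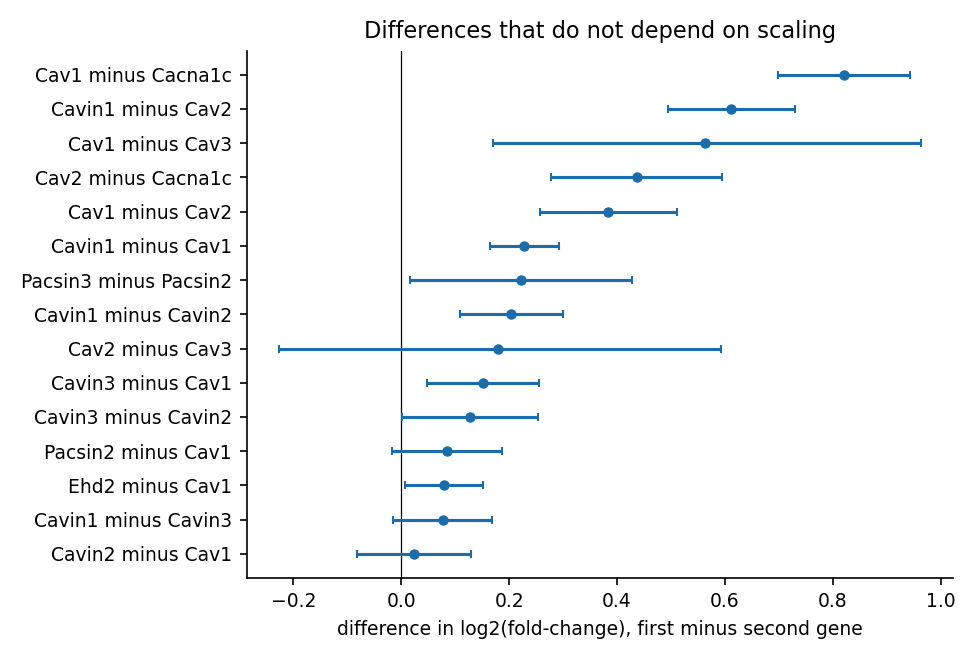
The difference in log2(fold-change) between the genes of each pair, named first minus second, with bars for the 95% exact counting interval. Of the 15 pairs, 11 have intervals that leave out 0, from 0.08 for Ehd2 minus Cav1 to 0.82 for Cav1 minus Cacna1c. The share among pairs of other genes was not computed.

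Close relatives of these genes and other proteins that shape membranes were measured as a list of 15. Of these, 13 had at least 10 reads, 6 had intervals above 0, 3 below 0, and none passed the fold limit. The background among genes with at least 500 reads was 41.4% above 0, 21.4% below 0 and 3.36% past the fold limit. The 13 genes had a median log2(fold-change) of 0.10 with TMM, -0.11 with total counts and -0.39 relative to Ppia and Hprt. The muscle cavin gene Cavin4 had 0 and 1 reads and the neuronal pacsin gene Pacsin1 had 1 and 0 reads, at or under the floor of 3 reads, so neither was detectable at this depth. Ehd1, an endocytic recycling relative of Ehd2, had 2651 and 3302 reads and the highest value of the list at 0.42 (0.34 to 0.49). Ehd4 was 0.26 (0.20 to 0.32) and Ehd3, found in striated muscle and nerve, was -0.11 (-0.29 to 0.07). With total counts Ehd1 was 0.21 and Ehd4 0.055. The shift of -0.49 that sets Ppia and Hprt to 0 is larger than the value of Ehd1 or Ehd4. The flotillins, which mark membrane domains separate from caveolae, had values of 0.36 for Flot1 and 0.20 for Flot2, the latter -0.0086 with total counts. Dnm2, the ubiquitous dynamin that cuts vesicles from the membrane, was 0.15 (0.04 to 0.27), or -0.054 with total counts, and the lowest value was that of Dnm1 at -0.30 (-0.57 to -0.03). Flna, a filamin that links caveolin-1 to actin, was the most abundant of the list with 158923 and 140920 reads, and its value was -0.07 (-0.08 to -0.06).

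The genes of 11 proteins that work with or at caveolae had a median log2(fold-change) of 0.10 with TMM, -0.11 with total counts and -0.39 relative to Ppia and Hprt. Of these, 6 had intervals above 0 and 3 below 0 with TMM, against the same background of 41.4% and 21.4%. The fold limit was passed by 1 gene, against 11.4% of genes with at least 10 reads and 3.36% of those with at least 500. That gene was Nos3, the endothelial nitric oxide synthase that binds caveolin-1, with 1013 and 2025 reads and a value of 1.10 (0.99 to 1.21), or 0.89 with total counts. Jph2, whose product ties the sarcoplasmic reticulum to the surface, had 4931 and 7216 reads and a value of 0.65 (0.60 to 0.70). Cacna1c, which encodes the pore of the L-type channel that the study places in caveolae, had 1890 and 1066 reads and the lowest value of the list, -0.72 (-0.83 to -0.62). Relative to Cacna1c, Cav1 was higher in the depolarized library by 0.82 (0.70 to 0.94) and Cav2 by 0.44 (0.28 to 0.60), whatever the scaling. The pair of Cav2 and Cacna1c was added after the values were seen. The Cav1 level per length was 19.8 times that of Cacna1c in 5 mM K+ and 35.0 times in 60 mM K+ by the deposited FPKM, and 7.11 and 12.6 times by the union lengths. Of the kinase genes of the pathway, Camkk2 was 0.18 (0.02 to 0.34), or -0.030 with total counts. Camk1 was 0.30 (0.18 to 0.42), or 0.088 with total counts. Setting Ppia and Hprt to 0 shifts every gene by -0.49, which is larger than the value of either kinase gene. Creb1, which encodes the transcription factor CREB, had 633 and 472 reads and a value of -0.32 (-0.50 to -0.15).

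Cells other than myocytes also make caveolae, so their markers were read beside the members. The shares among genes with at least 500 reads given above, 41.4% above 0 and 21.4% below, are the background for the smooth muscle, endothelial and fibroblast markers. Only 4 adipocyte, 2 Schwann cell, 1 striated muscle and 0 macrophage markers had that many reads. For these lists the shares of genes with at least 10 reads, 25.0% above and 20.3% below, are closer. In bulk tissue, fewer cells of a type and less RNA per cell cannot be told apart. Of the 10 smooth muscle markers, 8 lay above 0 and 2 below, with a median of 0.13 and summed levels of 40565 and 44588 CPM. This median was -0.079 with total counts and -0.36 relative to Ppia and Hprt, so the direction of the list depended on the scaling. Of the 10 endothelial markers, 8 lay above 0 and 1 below, with a median of 0.36 (0.15 with total counts, -0.13 relative to Ppia and Hprt) and summed levels of 3594 and 4895 CPM. Among them were Cdh5 at 0.83 and Pecam1 at 0.50, while Kdr was -1.10. The 10 adipocyte markers had a median of -0.45, with 2 above 0 and 6 below, and Plin1, the coat protein of fat droplets, went from 101 to 18 reads. Their summed levels were 1060 and 1022 CPM, of which Plin4 alone gave 665 and 633 CPM. The fold limit was passed by 4 of them, Lep as an increase and Adipoq, Plin1 and Cfd as decreases, compared with 11.4% of all genes with at least 10 reads. Of the 8 fibroblast markers, 2 lay above 0 and 6 below, with a median of -0.10 and summed levels of 6463 and 6054 CPM. The part of these shifts in the values of the caveolar genes was not tested. The reads of the 10 striated muscle markers, a possible source of Cav3, summed to 664 and 670, of which 439 and 412 were those of Acta1, whose near-identical relative Acta2 makes its count uncertain. Myh4 had 0 reads and 2 striated markers were under 10 reads. The other 8 had a median of 0.24, with 1 above 0 and none below. The 7 macrophage markers summed to 229 and 235 reads with a median of -0.04, and the 5 Schwann cell markers to 1815 and 1520 reads with a median of -0.24. Each of the 5 mesothelial markers was under 10 reads.

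**Figure D5:**
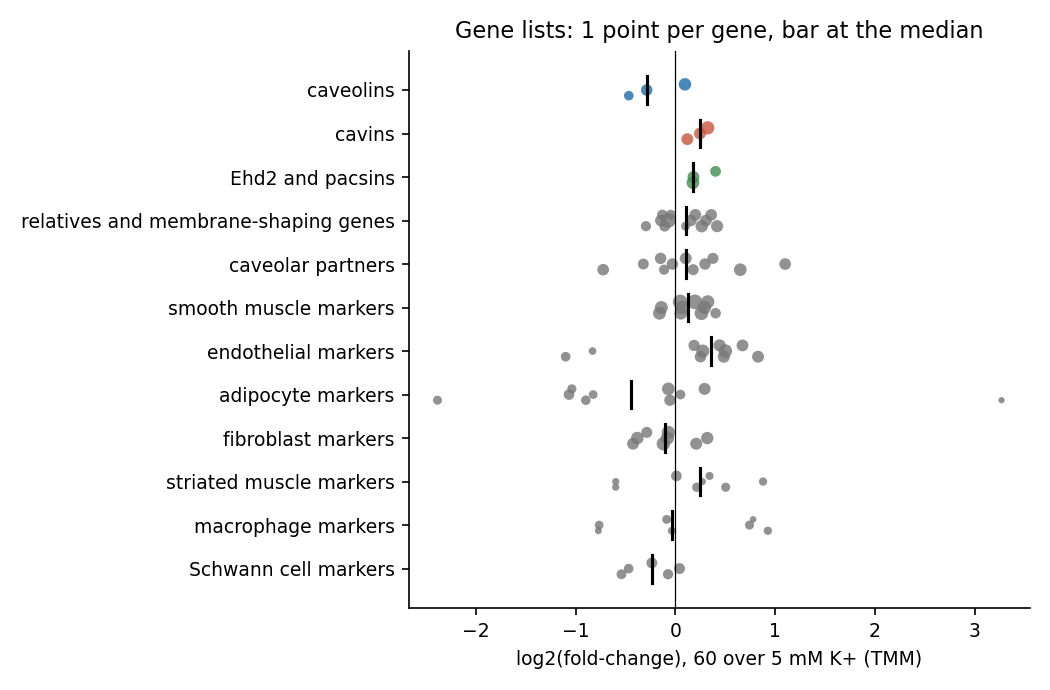
The log2(fold-change) of every listed gene with at least 10 reads, 1 point per gene, larger points for more reads, and a black bar at the median of each list. The caveolar genes spread over -0.47 to 0.40, wider than the smooth muscle markers (-0.16 to 0.40) and the relatives (-0.30 to 0.42) and narrower than the endothelial (-1.10 to 0.83) and adipocyte markers (-2.39 to 3.27, the latter for Lep with 1 and 9 reads and an interval of 0.42 to 8.73).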

How the data were processed

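Reads were aligned by the authors to mm9 (TopHat2). The authors deposited, for each gene, raw counts of reads and FPKM values, and counts divided by FPKM gave 1 ratio between the libraries for every gene, so FPKM was scaled by total counts. The submitters' processing notes also name TopHat2 2.0.12, HTSeq 0.6.1 and edgeR 3.0.8, without roles. The supplementary methods state that edgeR scaled the counts by 1 factor per library ahead of the DEGSeq test. The log2(fold-change) that the study lists for Nos3, 1.1007, equals the TMM value computed here, and the same holds for Hk2 at 3.2305. The annotation is not given in the sources used here, and 22972 of 55573 identifiers are not in GENCODE vM1, from which mm9 positions were taken.

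From the counts, log2(fold-change) was computed after TMM scaling (edgeR 4.0.16, R 4.3.3), with 95% Clopper-Pearson intervals from the share of reads in the depolarized library. Differences between genes have exact conditional intervals of the odds ratio (scipy 1.17.1). The quasi-likelihood test could not be run with 1 library per condition, and the single-library test of the study compares libraries, so no p-values are given. The fold and its interval were tested before use on simulated data that held counting error only, so spread between libraries was not covered. Coding sequences were aligned globally with Biopython 1.88. Protein sequences were not used here, so the planned protein identities were computed on coding bases instead.

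Other scalings were tried: median-of-ratios (DESeq2 1.42.0), total counts, upper quartile, reference genes Ppia and Hprt, the smooth muscle markers, FPKM with pseudocounts, TMM from genes with at least 10 reads, a lower fold limit, wider intervals, other read minimums and TPM. The genes named are the 9 members, then of the other lists those with the highest level or most extreme values, the proteins of the study, and genes beside Cav1, Cav2 and Cav3. Other list members may also be named. The members and lists were chosen with earlier results of these data known. Of the gene lists, 11 besides the members were described.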

Additional observations from a re-analysis of the deposited data

How the results depend on the processing

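No paired analysis was possible because a single library stood for each condition. Median-of-ratios scaling, upper-quartile scaling and TMM from genes with at least 10 reads changed no sign of a member, but with upper-quartile factors the intervals of Cav1 and Cavin2 spanned 0, which left 5 members above 0. With total counts, and nearly alike on the log2(FPKM + 1) and log2(FPKM + 0.1) scales, log2(fold-change) turned to -0.11 for Cav1, -0.089 for Cavin2 (-0.088 with a pseudocount of 1), -0.033 for Ehd2 and -0.028 for Pacsin2, and the median of the 9 genes was -0.033. With Ppia and Hprt set to 0 it turned to -0.39 for Cav1, -0.17 for Cavin1, -0.37 for Cavin2, -0.24 for Cavin3, -0.31 for Ehd2, -0.31 for Pacsin2 and -0.088 for Pacsin3, with a median of -0.31. With the smooth muscle markers set to 0 it turned to -0.035 for Cav1 and -0.011 for Cavin2, with a median of 0.045. The cause is the construction of these settings, which shift all genes alike, by -0.21, -0.49 and -0.13. The number of members above 0 went from 7 to 2, 0 and 3, and with Ppia and Hprt 8 members were below 0 in place of 2. Of all genes with at least 500 reads, 8.03% then lay above 0 and 77.6% below with Ppia and Hprt, 28.4% and 36.5% with the smooth muscle markers, and 36.7% and 26.2% with upper-quartile factors. With an assumed coefficient of variation between libraries of 0.1 or 0.2, the interval left out 0 for 0 members above and 0 below. Among members with at least 500 reads, 1 was below 0. A fold limit of 0.5 called 0 members. TPM rescales all genes of a library alike, so it could not change the levels relative to Cav1. The exon union lengths moved all 8 of these levels in both libraries. What limits these results is the single library per condition, since the spread between animals is unknown. The union lengths were chosen after seeing the data.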
